A study of Mus musculus with 6 samples.

Results

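The IL-1 family receptor genes Il1r1, Il1r2, Il1rl1, Il18r1, Il18rap and Il1rap were followed across 6 RNA-seq libraries of mouse CD4 T cells. They are the ligand-binding chains, accessory chains and decoy through which IL-1, IL-33 and IL-18 reach a cell. They were matched by gene symbol and were chosen with earlier results of these data known. All 6 were found among the 49315 genes of the deposited count files, and all 6 passed the filter on low counts that left 12838 genes.

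The study asked how memory CD4 T cells against a commensal flagellin differ after CAMCI, in which cells are activated while their metabolism is inhibited. The cells carried the CBir1 T-cell receptor transgene and CD45.1. On day 0, 2000000 of them, CD4+ and CD44-, were given to C57BL/6.CD45.2 mice, which then received 50 ug CBir1 flagellin with 1 ug CT by the intraperitoneal route on days 1 and 7. On days 28 and 35, mice of 4 groups were given 3 ug MEP1 intravenously and then, for 5 days in a row, intraperitoneal injections. These were metformin and rapamycin together with CMC (MEP1+Metformin+Rapamycin, here the combination), rapamycin with CMC (MEP1+Rapamycin), metformin with CMC (MEP1+Metformin), or the vehicle CMC (MEP1+CMC). Mice labelled No treatment had neither MEP1 nor inhibitor in that period. Every recipient was challenged with 3 ug MEP1 on day 56, per the protocol, and the donor cells still in the spleen were sorted on day 63. The sixth library was a naive CD4 control of the same transgenic cells. The header of the No treatment count column names it as lacking that challenge, which contradicts its label and the protocol, and the grouping follows the label. Rapamycin inhibits the kinase mTOR, and metformin lowers mitochondrial energy supply. Neither was injected after the 5-day courses, so the inhibitor libraries record cells some weeks later. There was 1 library per condition, and the number of mice behind it, pooling and sex are not given in the sources used here.

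IL-1R1, the product of Il1r1, binds IL-1 and signals once the accessory chain IL-1RAP, from Il1rap, joins it, through MyD88 and IRAK kinases to NF-kB. IL-1R2, from Il1r2, binds IL-1 but lacks the intracellular signalling domain and acts as a decoy. ST2, from Il1rl1, is the IL-33 receptor, known on Th2 cells and on part of the regulatory T cells, and it shares IL-1RAP. It exists in membrane and soluble forms, which counts per gene do not tell apart. IL-18 binds the chain encoded by Il18r1 and signals when the chain encoded by Il18rap joins, a route known for raising interferon gamma in Th1 cells.

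Of the 6 genes, 5 lie in 1 cluster on chromosome 1 of GRCm38, all on the plus strand. In order they are Il1r2 (40074079 to 40125231), Il1r1 (40225080 to 40317257), Il1rl1 (40429570 to 40465415), Il18r1 (40465552 to 40500854) and Il18rap (40515362 to 40551705). Il1rap is on chromosome 16 (26581704 to 26730117, plus strand). The cluster spans 478 kb and holds 6 protein-coding genes, all of this receptor family, the remaining one being the IL-36 receptor gene Il1rl2. Only 136 bases separate the last exon of Il1rl1 from the first exon of Il18r1.

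RefSeq promoter windows (GRCm38.p6, 250 bases before to 50 after a start) matched all 6 genes with 10 windows. Windows of the neighbours Il1rl1, Il18r1 and Il18rap, and the first of 2 Il1r1 windows, are shown here 5′ to 3′ on the plus strand to set beside the levels of these 4 genes. Capitals mark GATAA in the Il1rl1 and Il18rap windows, and TTCNNNGAA or the NF-kB pattern (GGG and CC with 5 bases between them) in the Il18r1 window. The first Il1r1 window held none of the motifs searched, and the second, not shown, held 1 NF-kB match that began 232 bases before the start. The windows are chr1:40429320-40429619 and chr1:40439379-40439678 for Il1rl1, chr1:40465756-40466055 for Il18r1 (of its 3 windows, the one that held matches), chr1:40515112-40515411 for Il18rap and chr1:40224830-40225129 for Il1r1.
Il1rl1 window 1: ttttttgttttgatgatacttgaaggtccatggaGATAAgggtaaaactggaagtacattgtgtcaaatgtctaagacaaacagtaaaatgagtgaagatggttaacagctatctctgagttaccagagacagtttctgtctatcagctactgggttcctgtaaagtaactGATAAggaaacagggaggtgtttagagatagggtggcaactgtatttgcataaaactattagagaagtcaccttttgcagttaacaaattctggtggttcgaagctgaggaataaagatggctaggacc
Il1rl1 window 2: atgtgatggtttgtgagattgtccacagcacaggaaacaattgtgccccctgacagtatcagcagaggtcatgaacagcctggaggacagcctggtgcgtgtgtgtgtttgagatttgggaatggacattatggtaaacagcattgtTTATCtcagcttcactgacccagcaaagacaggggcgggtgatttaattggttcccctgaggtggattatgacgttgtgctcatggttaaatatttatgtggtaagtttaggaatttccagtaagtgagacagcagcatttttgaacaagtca
Il18r1 window 3: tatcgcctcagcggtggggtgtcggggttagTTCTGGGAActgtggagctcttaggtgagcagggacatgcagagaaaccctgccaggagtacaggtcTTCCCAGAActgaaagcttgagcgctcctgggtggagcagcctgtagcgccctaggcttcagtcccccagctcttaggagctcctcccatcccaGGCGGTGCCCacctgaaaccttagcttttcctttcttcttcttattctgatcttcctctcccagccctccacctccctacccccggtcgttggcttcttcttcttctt
Il18rap: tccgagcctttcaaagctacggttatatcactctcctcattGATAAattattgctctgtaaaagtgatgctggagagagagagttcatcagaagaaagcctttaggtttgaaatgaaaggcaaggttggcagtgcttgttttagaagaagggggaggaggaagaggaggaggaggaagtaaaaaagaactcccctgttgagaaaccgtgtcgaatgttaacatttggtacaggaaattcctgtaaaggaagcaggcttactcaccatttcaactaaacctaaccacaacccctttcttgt
Il1r1 window 1: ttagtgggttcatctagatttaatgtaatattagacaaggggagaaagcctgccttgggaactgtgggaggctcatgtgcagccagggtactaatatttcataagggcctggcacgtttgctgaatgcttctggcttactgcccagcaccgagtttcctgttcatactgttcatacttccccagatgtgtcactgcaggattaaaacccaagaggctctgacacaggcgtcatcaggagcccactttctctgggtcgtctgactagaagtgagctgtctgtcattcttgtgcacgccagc

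The motifs were searched on both strands in all 32851 windows of the RefSeq table. GATAA, the core of a GATA site, was in 4 of the 10 receptor windows and in 25.4% of all windows. In Il1rl1 it began 216 and 79 bases before the upstream start and, on the minus strand, 103 bases before the second start. It began 209 bases before the Il18rap start and, on the minus strand, 86 bases before the Il1r2 start. TTCNNNGAA, the STAT pattern, was in 2 receptor windows (Il1r2 and Il18r1) and in 8.30% of all windows. The NF-kB pattern was in 3 receptor windows (the second of Il1r1, the third of Il18r1 and that of Il1rap), against 50.8% of all windows, and in the Il1rap window its matches overlapped one another. AGGTGTGA (T-box, 1.28% of all windows), TGANTCA (AP-1, 7.81%) and TGTGGTTT (RUNX, 1.78%) were in none of the 10. These matches describe the letters and are not binding sites.

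Levels are given in TMM CPM, the usual count scaled to library size after correction of that size by the trimmed mean of M values. A difference between a pair of libraries is a log2 ratio of these levels with an exact 95% counting interval. A receptor passed the size rule when the difference was 2-fold or more and its interval left out no change. With 1 library per condition such a difference has no replicate check, and the interval covers counting error only. In bulk RNA from sorted cells, fewer cells with a transcript and less of it per cell cannot be told apart.

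**Figure D1:**
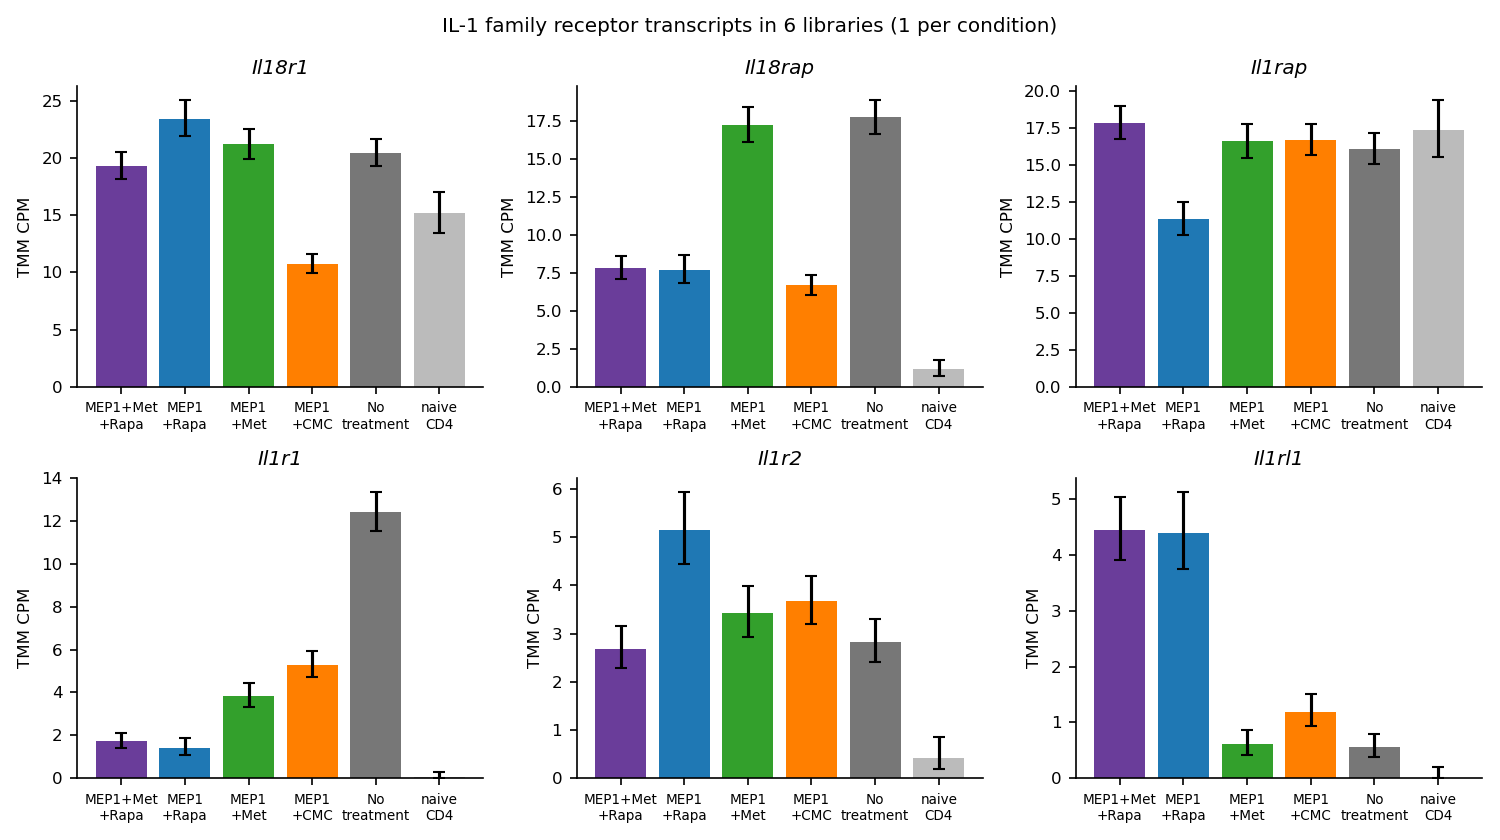
Level of each receptor transcript (TMM CPM, linear axes from 0) in the 6 libraries, 1 bar per library, with 95% counting intervals. Il1rl1 stands at 4.45 and 4.40 in the combination and MEP1+Rapamycin libraries and at or below 1.19 elsewhere, while Il1r1 is highest at 12.4 in No treatment and Il1rap is between 16.1 and 17.8 in every library but MEP1+Rapamycin.

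Il1rl1, the IL-33 receptor gene, was high in the libraries that had received rapamycin. It had 248 counts in the combination, 163 in MEP1+Rapamycin, 31 in MEP1+Metformin, 70 in MEP1+CMC, 32 in No treatment and 0 in the naive control. As levels these were 4.45, 4.40, 0.615, 1.19, 0.556 and 0 TMM CPM in the same order. Both rapamycin libraries stood above the rest, and they did not differ beyond counting error (log2 ratio of the combination over MEP1+Rapamycin 0.02, interval -0.27 to 0.31). Against MEP1+Metformin the log2 ratio was 2.85 for the combination (interval 2.31 to 3.44) and 2.84 for MEP1+Rapamycin (2.28 to 3.44). Against MEP1+CMC the ratios were 1.90 (1.51 to 2.30) and 1.88 (1.47 to 2.31). MEP1+CMC had more Il1rl1 than No treatment, at a log2 ratio of 1.10 (0.48 to 1.75), and MEP1+Metformin and No treatment were not separated (0.14, interval -0.62 to 0.90). With the naive library's 0 counts set at the floor of 3 counts, 0.161 TMM CPM, No treatment was 3.44-fold higher. The counting interval, taken from the 0 counts themselves, had a lower limit of 2.64-fold and no upper limit.

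ST2 is also carried by mast cells, basophils and some other myeloid cells, so their markers were read in the same libraries. The 10 mast-cell and basophil genes summed to 7.62 TMM CPM in the combination, 8.79 in MEP1+Rapamycin, 8.03 in MEP1+Metformin, 7.27 in MEP1+CMC, 9.02 in No treatment and 6.24 in the naive control. Only 2 of the 10 passed the filter on low counts. Of these 10, 1, 3, 4, 3, 6 and 8 were at 0 in the same order. The members did not go 1 way. Mcpt8 had counts in the combination and MEP1+Rapamycin, where Il1rl1 was highest, and was at 0 in the last 4 libraries. Fcer1a and Gata2 were at 0 in MEP1+Rapamycin and had counts in the combination, MEP1+Metformin and MEP1+CMC. Of the 2 that passed the filter, 1 was above and 1 below no change in the combination over MEP1+CMC. The same held for MEP1+Rapamycin over MEP1+CMC. The 11 neutrophil genes summed highest in the combination, at 17.7, and in MEP1+Rapamycin, at 8.34. The sum was 1.94 in MEP1+Metformin, 5.39 in MEP1+CMC, 5.32 in No treatment and 3.45 in the naive control. Of these genes 5 passed the filter. In MEP1+Rapamycin over MEP1+CMC 3 of the 5 were above no change and 2 below it, and in the combination over MEP1+CMC all 5 were above it. Of the neutrophil genes 0, 1, 2, 2, 6 and 4 were at 0 in these libraries. The part of mast cells, basophils or neutrophils in the Il1rl1 level was not tested.

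Il1r1, the signalling IL-1 receptor gene, ran close to the opposite way among the transferred libraries. Its counts were 96 in the combination, 53 in MEP1+Rapamycin, 194 in MEP1+Metformin, 310 in MEP1+CMC, 714 in No treatment and 1 in the naive control. The levels were 1.72, 1.43, 3.85, 5.29, 12.4 and 0.0538 TMM CPM. No treatment was highest, then MEP1+CMC, then MEP1+Metformin, and the rapamycin libraries were lowest of the transferred ones and not separated from each other (0.27, interval -0.23 to 0.78). Against MEP1+Metformin the log2 ratio was -1.16 for the combination (-1.53 to -0.80) and -1.43 for MEP1+Rapamycin (-1.89 to -0.98). Against No treatment it was -2.85 (-3.17 to -2.54) for the combination, -3.12 (-3.55 to -2.71) for MEP1+Rapamycin, -1.69 (-1.93 to -1.46) for MEP1+Metformin and -1.23 (-1.43 to -1.04) for MEP1+CMC. All 4 MEP1 libraries were thus below No treatment. The ratio of No treatment to the naive control, 7.85, rests on 1 naive count and has an interval of 5.37 to 13.15.

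Macrophage, monocyte and dendritic-cell transcripts stood highest in the same library as Il1r1. The 15 genes of that list summed to 579 TMM CPM in the combination, 446 in MEP1+Rapamycin, 526 in MEP1+Metformin, 735 in MEP1+CMC, 3386 in No treatment and 68.5 in the naive control, and only the naive control had any at 0 (Cd14 and Marco). The 8 erythroid and platelet genes also summed highest there, at 54.6 to 362 in the MEP1 libraries, 1701 in No treatment and 387 in the naive control. What these cells contributed to Il1r1 was not tested.

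Il1r2, the decoy receptor gene, had a highest level 1.92 times the lowest among transferred libraries, against a median of 1.62 times over all genes, and 69.3% of genes varied less. It had 150, 191, 173, 215 and 163 counts in the combination, MEP1+Rapamycin, MEP1+Metformin, MEP1+CMC and No treatment, and 8 in the naive control. The levels were 2.69, 5.15, 3.43, 3.67, 2.83 and 0.431 TMM CPM. MEP1+Rapamycin stood above the other libraries, and neighbours among MEP1+CMC, MEP1+Metformin, No treatment and the combination were not separated. No treatment exceeded the naive control, at a log2 ratio of 2.72 (interval 1.70 to 3.95), and with TMM no pair of transferred libraries passed the size rule for this gene. Other scalings put 2 pairs past it. MEP1+Rapamycin over No treatment, 0.86 with TMM, was 1.04 with DESeq2 size factors, 1.14 with library totals and 1.07 with TMM from the kept genes, and the combination over MEP1+Rapamycin, -0.94 with TMM, was -1.07 with DESeq2 size factors and -1.09 with TMM from the kept genes. An antisense gene, Gm16894, overlaps Il1r2 and had 19, 48, 26, 60, 25 and 0 counts in the 6 libraries, and the strand setting of the counting is not given in the sources used here. Reads of the pair therefore cannot be assigned with certainty.

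Il18r1, the IL-18 binding chain, was the most abundant of the 6 per length in every library. Per kilobase of exon it stood at 4.01, 4.86, 4.40, 2.23, 4.24 and 3.15 TMM CPM in the combination, MEP1+Rapamycin, MEP1+Metformin, MEP1+CMC, No treatment and the naive control. That was 29.2% (MEP1+CMC) to 61.9% (naive control) of the per-length sum of the 6 receptors. MEP1+CMC was the low library, and even naive cells carried the transcript. As counts Il18r1 had 1076, 868, 1068, 629, 1175 and 282. The log2 ratio to MEP1+CMC was 0.85 (0.70 to 0.99) for the combination, 1.13 (0.98 to 1.28) for MEP1+Rapamycin and 0.98 (0.84 to 1.13) for MEP1+Metformin, and that of MEP1+CMC to No treatment was -0.93 (-1.07 to -0.79). The size rule was met by MEP1+Rapamycin only, since the rest fell just short of 2-fold. MEP1+Metformin over MEP1+CMC passed with library totals (1.13) and with TMM from the kept genes (1.01). No treatment exceeded the naive control, at 0.43 (0.24 to 0.62).

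Il18rap, the chain that completes the IL-18 receptor, fell into a high and a low set of transferred libraries. It had 438 counts in the combination, 286 in MEP1+Rapamycin, 871 in MEP1+Metformin, 392 in MEP1+CMC, 1022 in No treatment and 22 in the naive control. The levels were 7.85, 7.71, 17.3, 6.69, 17.8 and 1.18 TMM CPM. MEP1+Metformin and No treatment formed the high set and were not separated (-0.04, interval -0.17 to 0.09). The combination, MEP1+Rapamycin and MEP1+CMC formed the low one, with a ratio to MEP1+CMC of 0.23 (0.03 to 0.43) for the combination and 0.21 (-0.02 to 0.43) for MEP1+Rapamycin. Metformin alone thus went with a higher level than CMC, at a log2 ratio of 1.37 (1.20 to 1.54), whereas with rapamycin added the level was lower than with metformin alone, at -1.14 (-1.31 to -0.97). MEP1+Rapamycin was below MEP1+Metformin by a similar ratio, at -1.16 (-1.36 to -0.97). Over the naive control, No treatment was higher, at 3.91 (3.30 to 4.59). NK cells also carry this receptor. The 7 NK genes summed to 68.0, 40.9, 62.3, 153, 39.8 and 56.5 TMM CPM in the 6 libraries in the order above, highest in MEP1+CMC. Of these genes 0, 0, 1, 0, 1 and 4 were at 0 in the same order. The part of NK cells in the Il18rap and Il18r1 levels was not tested.

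Il1rap, the accessory chain shared by the IL-1 and IL-33 receptors, was nearly level. It had 995, 421, 838, 980, 926 and 323 counts, or 17.8, 11.4, 16.6, 16.7, 16.1 and 17.4 TMM CPM, in the combination, MEP1+Rapamycin, MEP1+Metformin, MEP1+CMC, No treatment and the naive control. Only MEP1+Rapamycin stood apart, below MEP1+CMC at a log2 ratio of -0.56 (-0.73 to -0.39), and no pair passed the size rule. Neighbouring levels among the other 5 libraries were not separated. Across the 5 transferred libraries the highest level was 1.57 times the lowest for Il1rap, 1.92 for Il1r2, 2.18 for Il18r1, 2.66 for Il18rap, 8.0 for Il1rl1 and 8.68 for Il1r1. The median over the 12838 genes was 1.62, and 96.5% of genes varied less than Il1r1, 96.1% less than Il1rl1, 83.7% less than Il18rap, 77.1% less than Il18r1 and 45.2% less than Il1rap.

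**Figure D2:**
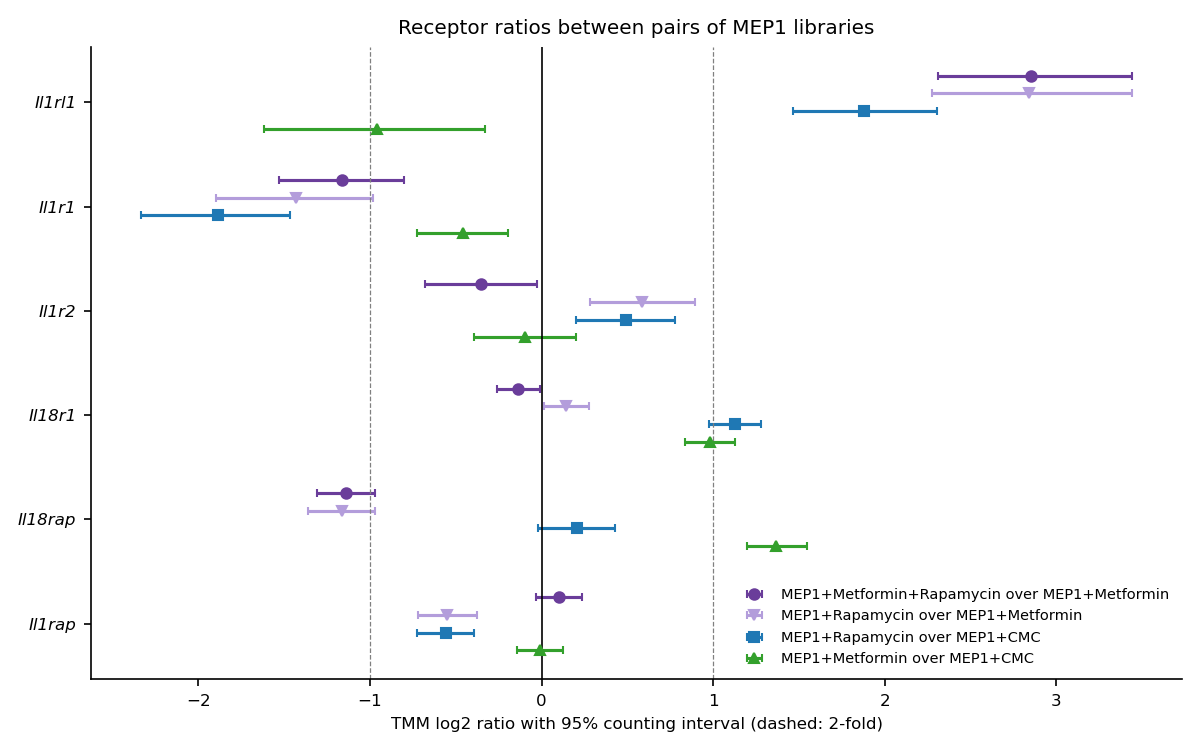
TMM log2 ratios of the 6 receptors between pairs of MEP1 libraries (horizontal axis), with 95% counting intervals and dashed lines at 2-fold. Il1rl1 lies right of the 2-fold line for both rapamycin libraries over MEP1+Metformin (2.85 and 2.84) and Il1r1 and Il18rap lie left of it, while Il18r1 is near 0 in those pairs and near 1 for each single inhibitor over MEP1+CMC.

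The pairs that compare rapamycin with no rapamycin in the presence of the same or no other drug gave these counts. In the combination over MEP1+Metformin, 3 of 6 receptors passed the size rule (Il1rl1 higher, Il1r1 and Il18rap lower), where 2.98% of all genes tested did. MEP1+Rapamycin over MEP1+CMC had Il1rl1 and Il18r1 higher and Il1r1 lower, again 3 of 6, against 11% of genes. For metformin, 1 of 6 passed over MEP1+CMC (Il18rap, higher), against 5.63% of genes, and 0 of 6 in the combination over MEP1+Rapamycin, against 6.33%. The nearest to passing in that last pair was Il1r2, at -0.94 (-1.26 to -0.62), which other scalings put past the rule. Il1rl1 passed the filter of 2 TMM CPM only through the combination and MEP1+Rapamycin (4.45 and 4.40). Il1r1 passed it only through MEP1+Metformin (3.85), MEP1+CMC (5.29) and No treatment (12.4), and was at 1.72 and 1.43 with rapamycin. Where a rapamycin library is set against one without it, here or below, the place of both genes is thus not independent of the filter. The receptors were chosen with earlier results known, so counts beside the shares of all genes are a description.

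With both inhibitors set against MEP1+CMC, 2 of 6 passed (Il1rl1 higher, Il1r1 lower), against 6.7% of genes. The direct comparison of the inhibitors, MEP1+Rapamycin over MEP1+Metformin, had 3 of 6 past the rule, the same 3 as the combination over MEP1+Metformin, against 8.07% of genes. These pairs share the MEP1+Metformin or the MEP1+CMC library, so their values are not independent of one another.

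MEP1 without inhibitor, MEP1+CMC over No treatment, left 3 of 6 receptors past the rule (Il1rl1 higher, Il1r1 and Il18rap lower), against 11.5% of genes. Set against the same No treatment library, 3 of 6 passed in the combination (13.4% of genes) and 3 of 6 in MEP1+Rapamycin (16.3% of genes), each time Il1rl1 higher and Il1r1 and Il18rap lower. In MEP1+Metformin over No treatment only Il1r1 passed, 1 of 6, against 14.1% of genes. For Il1rl1 the ratio to No treatment was 3.00 (2.46 to 3.58) in the combination and 2.98 (2.43 to 3.58) in MEP1+Rapamycin. Il18rap stood at -1.18 (-1.34 to -1.01) and -1.20 (-1.40 to -1.01) in those libraries, and at -1.41 (-1.58 to -1.24) in MEP1+CMC. It fell short of the rule in MEP1+Rapamycin with library totals (-0.93) and with TMM from the kept genes (-0.99), where Il1r2 passed instead, and in the combination with library totals (-0.95). In No treatment over the naive control 4 of 6 passed, all of them higher (Il1r1, Il1r2, Il18rap and, on the floor, Il1rl1), against 24% of genes. In the naive control these were at 0.0538, 0.431, 1.18 and 0 TMM CPM, under the filter, which they passed only through transferred libraries. Their place here, and in the models against naive cells below, is thus not independent of the filter.

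The libraries were also fitted together in 4 edgeR quasi-likelihood models, in which libraries on the same side of a contrast stand in for replicates, with Benjamini-Hochberg adjustment over the 12838 genes. In these, 0 of the 6 receptors were called at an adjusted p below 0.05. The models called 9.81% of genes for transferred cells against naive, 1.9% for MEP1 against No treatment, 0.203% for the rapamycin term and 0.164% for the metformin term, the last pair from an additive fit to the 4 MEP1 libraries with 1 residual degree of freedom. At an unadjusted p below 0.05 edgeR had 2, 1, 2 and 1 of the 6 receptors, against 27.8%, 17.4%, 6.29% and 7.19% of genes. The DESeq2 Wald test called 4 receptors for transferred against naive, where it called 29% of all genes, and 1, Il1rl1, for the rapamycin term, where it called 0.6%. It called 0 for MEP1 against No treatment, against 8.95% of genes. For the metformin term it gave no adjusted p for any receptor and called 6.23% of the 642 genes that had one.

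Il1rl1 came nearest to a call in the rapamycin term, with a log2 fold change of 2.30 (SE 0.47, edgeR adjusted p = 0.052) and a higher level in 2 of 2 libraries with rapamycin. Il1rl1 passed the filter of 2 TMM CPM only through those 2 libraries, the others being at or below 1.19, so the filter is not independent of this contrast. It was called when loci resembling ribosomal RNA were left out of the scaling (adjusted p = 0.048), in the legacy quasi-likelihood fit (adjusted p = 0.043) and by the DESeq2 Wald test (adjusted p = 0.024). It was not called in edgeR with DESeq2 size factors (adjusted p = 0.066), TMM from the kept genes (adjusted p = 0.12) or library totals (adjusted p = 0.14). Without the filter on low counts it was not called either (edgeR adjusted p = 0.93). Il1r1 was next, at -1.5 (SE 0.42, edgeR adjusted p = 0.28), lower in 2 of 2. It was under the filter in those 2 libraries (1.72 and 1.43) and passed only through libraries without rapamycin. The filter is thus not independent of this contrast for Il1r1 either. The MEP1 model gave Il1r1 a log2 fold change of -1.98 (SE 0.53, edgeR adjusted p = 0.12), with 4 of 4 MEP1 libraries below No treatment. Against naive cells Il18rap was at 3.28 (SE 1.06, edgeR adjusted p = 0.089) and Il1r2 at 3.01 (SE 1.02, edgeR adjusted p = 0.093), each higher in 5 of 5 transferred libraries. Both Il18rap and Il1r2 were under the filter in the naive control (1.18 and 0.431 TMM CPM), so the filter is not independent of that contrast. For metformin the lowest p of the 6 was that of Il18rap, at 0.73 (SE 0.33, edgeR adjusted p = 0.68).

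The MEP1+CMC library also differed from the inhibitor libraries in sex-linked transcripts. Xist stood at 0.323, 0.486 and 0.218 TMM CPM in the combination, MEP1+Rapamycin and MEP1+Metformin, against 262 in MEP1+CMC. Kdm5d was at 35.4, 35.7 and 35.7 in those 3 libraries, against 0 in MEP1+CMC. Values in No treatment were 24.2 for Xist and 8.46 for Kdm5d, and in the naive control 43.1 and 0.0538. Of the 5 sex-linked genes listed, 1 was higher and 4 were lower in MEP1+CMC than in No treatment, past the size rule, with a median log2 ratio of -6.80. In that pair 11.5% of all genes passed the rule. A difference between MEP1+CMC and an inhibitor library, or between No treatment and any other library, thus cannot be told apart from what goes with these transcripts, and the additive model includes MEP1+CMC. The combination, MEP1+Rapamycin and MEP1+Metformin are alike in them, and among these 3 the Il1rl1, Il1r1 and Il18rap ratios given above are 2.85 and 2.84, -1.16 and -1.43, and -1.14 and -1.16.

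The balance between receptor chains can be read within a library, where scaling plays no part. The pairs were chosen after their values were seen and are a description. Il1r1 made up 39% of the Il1r1 plus Il1r2 counts in the combination (exact 95% binomial interval 32.9% to 45.4%), 21.7% in MEP1+Rapamycin (16.7% to 27.4%), 52.9% in MEP1+Metformin (47.6% to 58.1%), 59.0% in MEP1+CMC (54.7% to 63.3%) and 81.4% in No treatment (78.7% to 83.9%). The signalling receptor's share of counts was thus largest in No treatment and smallest, among transferred libraries, after rapamycin alone. In the naive control it was 1 of 9 counts, with an interval of 0.281% to 48.2%. The exon length is 6363 bases for Il1r1 and 1908 for Il1r2, so a share of counts is not a share of molecules.

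For the IL-18 receptor, Il18rap made up 28.9% of the Il18rap plus Il18r1 counts in the combination (26.7% to 31.3%) and 24.8% in MEP1+Rapamycin (22.3% to 27.4%). MEP1+Metformin had 44.9% (42.7% to 47.2%), MEP1+CMC 38.4% (35.4% to 41.5%), No treatment 46.5% (44.4% to 48.6%) and the naive control 7.24% (4.59% to 10.8%). MEP1+CMC, low in both chains, kept a share between the rapamycin libraries and MEP1+Metformin. Of the Il1rl1 plus Il1r1 counts, Il1rl1 held 72.1% in the combination and 75.5% in MEP1+Rapamycin, against 13.8% in MEP1+Metformin, 18.4% in MEP1+CMC and 4.29% in No treatment. The IL-33 receptor thus outnumbered the IL-1 receptor in counts in both rapamycin libraries and in no other transferred library, and the naive control had only 1 count in all.

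**Figure D3:**
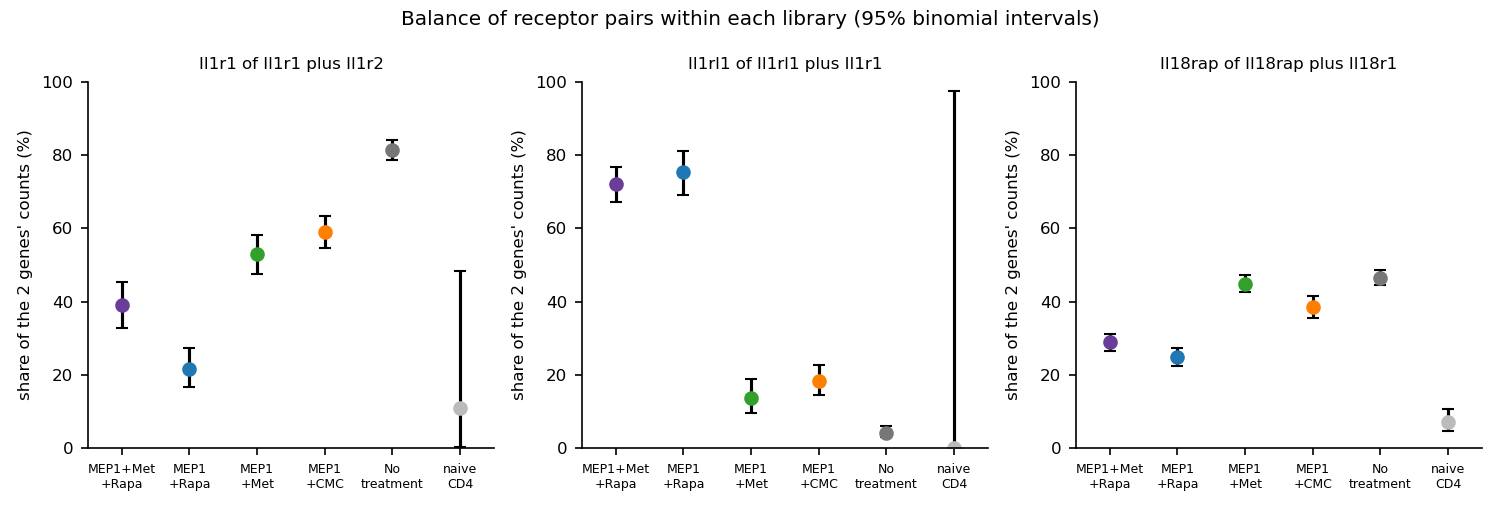
Share (%) of the first gene among the counts of a receptor pair in each of the 6 libraries, with exact 95% binomial intervals. Il1r1 reaches 81.4% of Il1r1 plus Il1r2 in No treatment, Il1rl1 exceeds 70% of Il1rl1 plus Il1r1 in the rapamycin libraries alone, and the naive intervals of the first and middle panels are wide because they rest on 9 counts and 1 count.

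Along the chromosome 1 cluster the genes did not move as a block. From left to right, the log2 ratio of the combination to MEP1+Metformin was -0.35 for Il1r2, -1.16 for Il1r1, 2.85 for Il1rl1, -0.13 for Il18r1 and -1.14 for Il18rap. MEP1+Rapamycin over MEP1+Metformin gave 0.59, -1.43, 2.84, 0.14 and -1.16. Il1rl1 and Il18r1, whose exons lie 136 bases apart, thus stood in the combination at 7.23-fold and 0.911-fold of their MEP1+Metformin levels. Il1rl2, shown for its position between Il1r1 and Il1rl1, had 12.9, 9.06, 20.2, 12.6, 15.5 and 22.9 TMM CPM in the 6 libraries and was highest in naive cells. Of the 4 other family receptors listed, 2 passed the filter. Il1rl2 passed the size rule in MEP1+Rapamycin over MEP1+Metformin, at -1.16 (-1.34 to -0.98).

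**Figure D4:**
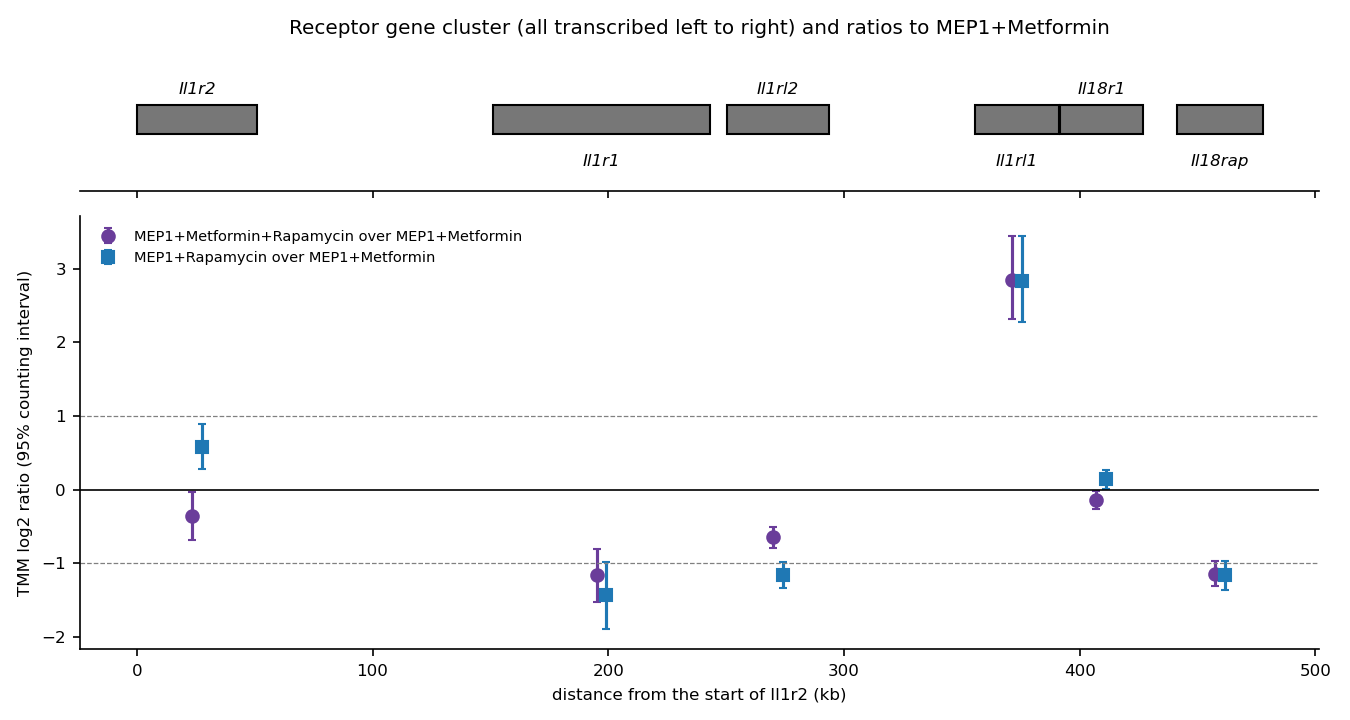
The receptor cluster drawn to scale by distance from the start of Il1r2 (kb), with boxes from first to last exon, above the TMM log2 ratio of each gene in the combination and in MEP1+Rapamycin over MEP1+Metformin (95% counting intervals, dashed lines at 2-fold). Il1rl1, at 2.85 and 2.84, stands between neighbours at or below 0.14.

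Among ligands and soluble antagonists, 7 of 11 listed genes were in the files by symbol and 5 passed the filter. All 5 were lower in MEP1+CMC than in No treatment, past the size rule, with a median log2 ratio of -2.08 against -0.04 over all genes. In that pair 11.5% of all genes passed the rule in either direction. All 5 were higher in No treatment than in the naive control, past the rule, against 24% of all genes in either direction. Of 4 ligand-processing genes 3 passed the filter, and Casp1, which cleaves the IL-1 beta and IL-18 precursors, rose by 2.61 against naive cells (SE 0.28, edgeR adjusted p = 0.0010). Il18, the ligand of Il18r1, had 5.77, 6.93, 6.15, 3.96, 18.7 and 0.915 TMM CPM in the combination, MEP1+Rapamycin, MEP1+Metformin, MEP1+CMC, No treatment and the naive control. In the MEP1 model 3 fell with edgeR: Il1a, an IL-1 gene, by 2.58 (SE 0.45, adjusted p = 0.025), Il18bp, the IL-18 decoy, by 1.95 (SE 0.27, adjusted p = 0.0086) and Il18 by 1.73 (SE 0.30, adjusted p = 0.025). As given above, that model called 1.9% of all genes. Myeloid cells also express these ligand and antagonist genes, and the macrophage sums given with Il1r1 moved the same way. Their part was not tested. In MEP1+Rapamycin over MEP1+CMC 2 of 5 were lower, against 11% of all genes past the rule in either direction, Il1b (-1.39) and the IL-1 receptor antagonist gene Il1rn (-1.02).

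Downstream of the receptors, 20 of 21 adaptor, kinase and NF-kB genes passed the filter. Over all genes edgeR called 0.203% in the rapamycin term and 9.81% against naive cells. Tnfaip3, which encodes the NF-kB feedback inhibitor A20, was the member of this list that fell in the rapamycin term, by 1.52 (SE 0.24, edgeR adjusted p = 0.0075). It stood at 340, 334, 801, 1174, 1038 and 104 TMM CPM in the combination, MEP1+Rapamycin, MEP1+Metformin, MEP1+CMC, No treatment and the naive control, an order near that of Il1r1. MEP1+Rapamycin over MEP1+CMC had 0 of 20 higher and 2 lower, Tnfaip3 (-1.81) and the TAK1-binding gene Tab3 (-1.13), with a median of -0.39 against -0.13 over all genes and 11% of all genes past the rule. In the combination over MEP1+Metformin only Tnfaip3 passed, at -1.24. MEP1+Metformin over MEP1+CMC and MEP1+CMC over No treatment had 0 of 20 past the rule in each direction. Against naive cells Nfkb1 rose by 1.02 (SE 0.25, edgeR adjusted p = 0.031), Nfkbiz, a nuclear co-factor of NF-kB, rose by 2.35 (SE 0.34, adjusted p = 0.0044) and the TAK1 activator Tab1 fell by 0.77 (SE 0.21, adjusted p = 0.047).

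All 14 listed transcription factors that bear on these receptors passed the filter. As given above, edgeR called 9.81% of all genes against naive cells and 1.9% in the MEP1 model. In the edgeR model against naive cells 4 rose: Tbx21, the Th1 factor, by 4.42 (SE 1.01, adjusted p = 0.033), Rora by 3.11 (SE 0.40, adjusted p = 0.0026), Ikzf2 by 3.09 (SE 0.70, adjusted p = 0.033) and Irf4 by 1.77 (SE 0.43, adjusted p = 0.032). The MEP1 model had 2 that rose, the regulatory T-cell factors Foxp3 by 3.23 (SE 0.51, edgeR adjusted p = 0.025) and Ikzf2 by 1.30 (SE 0.27, adjusted p = 0.045). Foxp3 had 72.6, 115, 58.7, 51.8, 7.92 and 13.9 TMM CPM in the combination, MEP1+Rapamycin, MEP1+Metformin, MEP1+CMC, No treatment and the naive control. Il1rl1 stood at 4.45, 4.40, 0.615, 1.19, 0.556 and 0 in the same libraries. In MEP1+CMC over No treatment 3 of 14 were higher and 0 lower, Foxp3 (2.71), Eomes (2.13) and Ikzf2 (1.63), against 11.5% of all genes past the rule. Tbx21 stood at 17.1, 10.2, 34.1, 18.1, 23.9 and 0.969, with MEP1+Metformin and No treatment the highest, as for Il18rap. In MEP1+Rapamycin over MEP1+CMC 1 of 14 was higher (Foxp3, 1.15) and 1 lower (Eomes, -3.42), with a median of -0.51 against -0.13 over all genes and 11% of all genes past the rule.

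Of 12 cytokine genes that T cells express on IL-1 family signals, 5 passed the filter. Ifng, which IL-18 raises in Th1 cells, had 25.4, 17.5, 74.4, 199, 63.8 and 0.161 TMM CPM in the combination, MEP1+Rapamycin, MEP1+Metformin, MEP1+CMC, No treatment and the naive control. It was highest in MEP1+CMC, where the level of both IL-18 receptor chains was lowest among the transferred libraries, although for Il18rap it was not separated from that in MEP1+Rapamycin. Against MEP1+CMC 0 of 5 were higher and 2 of 5 were lower with each inhibitor treatment, where 6.7% of all genes passed the rule in the combination, 11% in MEP1+Rapamycin and 5.63% in MEP1+Metformin. The 2 were Ifng, at -2.97 in the combination, -3.51 in MEP1+Rapamycin and -1.42 in MEP1+Metformin, and Il10, at -4.17, -3.96 and -2.60. In MEP1+CMC over No treatment Ifng (1.64) and Il10 (1.83) were higher and Il2 (-1.24) was lower, 3 of 5 against 11.5% of all genes. In the edgeR model against naive cells 2 of 5 rose, Il4 (adjusted p = 0.0028) and Areg (adjusted p = 0.041). That model called 9.81% of all genes, and neither Il4 nor Areg passed the filter in the naive control. Il4 had 13.4, 15.6, 11.4, 19.5 and 14.3 TMM CPM in the transferred libraries and 1 count in the naive control. Areg, which encodes amphiregulin, had 2.44, 3.05, 2.38, 3.10 and 3.25 and 0 naive counts, so fitted fold changes of this pair depend on the prior count and are not given.

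**Figure D5:**
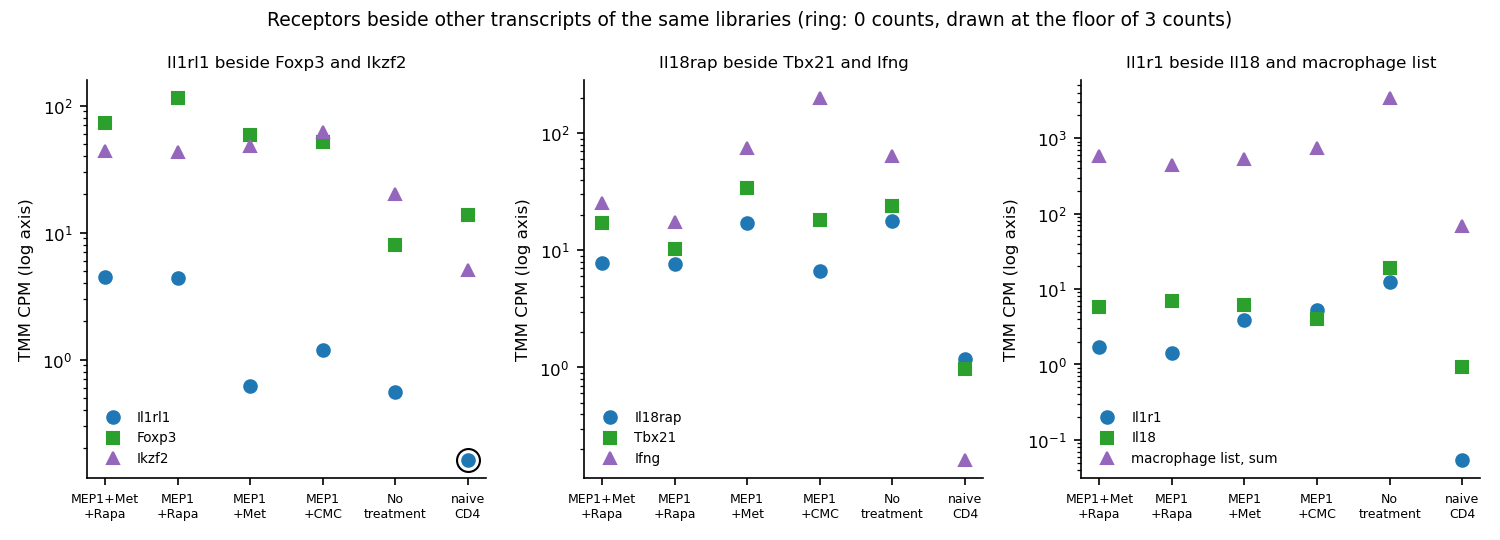
Levels (TMM CPM, log axes) of Il1rl1 beside Foxp3 and Ikzf2, of Il18rap beside Tbx21 and Ifng, and of Il1r1 beside Il18 and the summed macrophage list, in the 6 libraries. Il1rl1 is at 4.45 and 4.40 in the 2 rapamycin libraries, Foxp3 is between 51.8 and 115 in the 4 MEP1 libraries, Ifng peaks at 199 in MEP1+CMC where Il18rap is 6.69, and Il1r1, Il18 and the macrophage sum all peak in No treatment.

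For each receptor, the 3 genes nearest in pattern were found by the root mean square difference of centred log2(TMM CPM + 0.5) over the 6 libraries. Il1r1 was nearest to Cela1 (0.34), Tnf (0.37) and Rgl1 (0.39), of which the cytokine gene Tnf had 25.2, 20.3, 42.6, 51.1, 69.6 and 5.81 TMM CPM. Nearest to Il1rl1 were Gm37125 (0.38), Npas2 (0.40) and Fam3b (0.46). Npas2, a clock gene, stood at 4.50 TMM CPM in the combination and 1.92 in MEP1+Rapamycin, against 0.377 in MEP1+Metformin and 0.904 in MEP1+CMC. Il18rap was nearest to Myadm (0.16), Rassf4 (0.32) and Prc1 (0.34), Il18r1 to Zscan10 (0.14), Ckap4 (0.15) and E2f2 (0.15), Il1r2 to Adgrv1, Jun and Chic1 (0.17 each) and Il1rap to Foxj2 (0.03), Ppp2r1b (0.03) and Faf2 (0.04). Among the receptors themselves the closest pair was Il18r1 with Il1rap (0.50), the IL-18 receptor chains were 1.03 apart, and Il1r1 with Il1rl1 was the farthest (1.78).

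Across the series, total counts were highest in No treatment, at 60622310, and lowest in the naive control, at 26139000. All 11 CD4 T-cell genes were detected in all 6 libraries, summing to 7935 to 11490 TMM CPM, which fits the labelled cell type. Loci resembling ribosomal RNA took 1.00% to 3.13% of the counts of the transferred libraries and 15.4% of those of the naive control.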

How the data were processed

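RNA was sequenced from 6 libraries, 1 per condition, grouped by the submitters' treatment labels. The authors deposited unnormalized counts, 1 whole number per gene and library. The submitters' processing notes name Trimmomatic 0.36, STAR 2.5.2b, Subread 1.5.2 with its featureCounts, and build GRCm38. The annotation release, strand setting and treatment of multiply mapped reads are not given in the sources used here, and the last of these can lower counts of genes with close copies. Symbols came from GENCODE M21 (48970 of 49315 identifiers).

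Counts were scaled by TMM over all genes in edgeR 4.0.16 (R 4.3.3). Genes with at least 2 TMM CPM and 10 counts in at least 1 library were kept. Ratios carry exact Clopper-Pearson intervals (Python 3.11.15, scipy 1.17.1), and a count of 0 was set to a floor of 3 counts per library. Reads have no molecular identifiers, so intervals and floors cover counting error only. The edgeR models used glmQLFit (robust) and glmQLFTest, with 4, 3 and 1 residual degrees of freedom for transferred against naive, MEP1 against No treatment and the additive model. Their spread also holds treatment differences, the side with 1 library was taken to vary as the other side does, and p-values reflect only the spread between these libraries. Each SE is the size of the log2 fold change over the square root of F. The steps were tested on simulated data. Alternatives were DESeq2 1.42.0 size factors and Wald test, library totals, TMM without 5 loci resembling ribosomal RNA, TMM from the kept genes, other filters, other fold thresholds, the legacy fit and leaving out each library.

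All 6 receptors are named whatever their values. Other pathway genes could be named where they passed the size rule in an inhibitor library over MEP1+CMC or in MEP1+CMC over No treatment, or were called in a model. The receptors and lists were chosen with earlier results of these data known.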

Additional observations from a re-analysis of the deposited data

Results flagged for a closer look

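For Il18r1, the IL-18 binding chain, each inhibitor went with a different direction depending on whether the other was present. Rapamycin with metformin (the combination over MEP1+Metformin) gave a TMM log2 ratio of -0.13, and rapamycin alone (MEP1+Rapamycin over MEP1+CMC) gave 1.13. Metformin with rapamycin (the combination over MEP1+Rapamycin) gave -0.28, and metformin alone (MEP1+Metformin over MEP1+CMC) gave 0.98. Il1r2, the IL-1 decoy receptor gene, differed in the same manner for rapamycin, at -0.35 with metformin and 0.49 alone. Every one of these intervals excludes no change. Each contrast is 1 library against 1, so the difference between the contrasts was not tested. Both values for an inhibitor alone rest on the MEP1+CMC library, which also differs from the others in Xist and Kdm5d.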

How the results depend on the processing

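No paired analysis was possible because each condition had 1 library. No ratio changed direction after passing the size rule. Of 66 receptor log2 ratios, 15 moved beyond their counting interval with library totals, 5 with TMM from the kept genes, 3 with DESeq2 size factors and 0 without the loci resembling ribosomal RNA. Library totals shifted the median of all genes by -0.05 (the combination over MEP1+Rapamycin) to 0.42 (No treatment over the naive control). The shift was -0.03 for the combination over MEP1+Metformin and 0.01 for MEP1+Rapamycin over MEP1+Metformin. The stricter filter, a mean of 10 CPM, keeps only Il18r1 and Il1rap, and with it 1 receptor passed in MEP1+Rapamycin over MEP1+CMC and 0 in each other pair. At 3-fold, 0 passed in MEP1+CMC over No treatment, 0 in MEP1+Metformin over MEP1+CMC, 1 in the combination over MEP1+Metformin and 1 in MEP1+Rapamycin over MEP1+Metformin. At 1.5-fold, 3 passed in MEP1+Metformin over MEP1+CMC and 2 in the combination over MEP1+Rapamycin. MEP1+Metformin over MEP1+CMC had 2 with library totals and 2 with TMM from the kept genes. The combination over MEP1+Rapamycin had 1 with DESeq2 size factors and 1 with TMM from the kept genes. In the model against naive cells, where edgeR called 0 receptors and 1259 genes in all, library totals gave 2 (2672 genes), the legacy fit 2 (2287), the DESeq2 Wald test 4 (3728), and leaving out 1 library 0 to 2 (693 to 2998), with 2 called without No treatment (2998). In the rapamycin term, with 26 genes called in the edgeR fit used above, 1 receptor was called (Il1rl1) without the loci resembling ribosomal RNA (30 genes), 1 in the legacy fit (41) and 1 by the DESeq2 Wald test (77), and it had 17 genes with library totals, 0 with no filter and 107 with the stricter filter. Genes called moved by over 1.5 times from 244 in the MEP1 model with library totals (136), no filter (390), the stricter filter (101), the DESeq2 Wald test (1149) and without MEP1+Metformin (131), and the metformin term had 21, against 12 with library totals or TMM from the kept genes, 0 with no filter and 40 by the DESeq2 Wald test. The cause of these changes was not tested, beyond the fewer genes of the stricter filter and the thresholds themselves. TMM from the kept genes, and TMM without the loci resembling ribosomal RNA in the models, were chosen after seeing the data. Low counts limit Il1r1, Il1r2 and Il1rl1, most of all in the naive control with 1, 8 and 0 counts.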
